A study of Mus musculus with 3 samples.

Results

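ZMYM2 was studied by comparing mouse embryonic stem cells (ESCs) in which both Zmym2 alleles had been disrupted with wild type ESCs. Every gene whose mean over the wild type (WT) and the knockout (KO) library reached 50 normalised counts was taken, which gave 12626 of 39179 genes. A normalised count is the number of reads of a gene divided by the size factor of its library. It carries no correction for gene length, so levels are compared between libraries and not between genes. Ratios are KO over WT throughout, and a gene is called higher or lower when log2((KO + 1)/(WT + 1)) of its normalised counts is at least 1 or at most -1, which is 2-fold.

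Both libraries came from E14tg2a cells, a male mouse ESC line, in medium containing serum and LIF (leukaemia inhibitory factor), the cytokine that holds mouse ESCs undifferentiated. The KO library carries the title Zfp198_KO, Zfp198 being an older name of Zmym2. By the Methods, its cells were a clone grown from a single sorted cell after a Cas9 break in the coding sequence that left a frameshift in both alleles. The Methods describe this for other cell types and refer back to it for ESCs. The KO cells had thus passed through transfection and cloning, which the study does not report for the WT cells. It also describes stable transfection of knockout clones with Zmym2 or an empty vector. Whether the KO library came from cells with an empty vector is not stated. A further library from cells that overexpress Zmym2 from a PiggyBac transgene under drug selection (OE, titled Zfp198_OE) is given beside the other 2 for orientation only, and it shares the WT library as its reference. The stored line descriptions of KO and OE are exchanged relative to their titles. The names here follow the titles, which are also those of the columns, and the level of Zmym2 runs with them. There was 1 library for each condition, so a difference between 2 libraries has no replicate check, no p-value was computed, and the intervals given are exact 95% intervals (Clopper-Pearson) that cover counting error only. Differences between the conditions cannot be told apart from differences between cultures or clones.

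ZMYM2 is a protein with zinc fingers of the MYM type that binds the small modifier SUMO and joins the corepressor complex of the histone demethylase LSD1, CoREST and histone deacetylases. In mouse ESCs it is known as a repressor of genes that are otherwise active in germ cells and of young retrotransposons, among them MERVL, whose long terminal repeats drive many transcripts of the 2-cell embryo. A small share of ESCs in serum cultures passes through a state with such transcripts at any time. Germline genes in ESCs are also held silent by PRC1.6, a Polycomb complex whose MGA and MAX subunits bind the E-box CACGTG and whose E2F6 subunit binds the site TCCCGC.

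The E-box was present in many promoters of the germline genes that were higher in KO. Promoters were taken as 250 bases before to 50 bases after the first listed start of each gene in RefSeq (build GRCm38.p6), and both strands were searched. Of 23 germline genes called higher, 21 had a promoter in the table and 10 of these (47.6%) held CACGTG, against 6 of 21 (28.6%) for the germline genes not called higher and 7.24% of all 27025 promoters. Some of the higher genes entered the comparison only through their level in KO, among those with an E-box Brdt, Piwil1 and Taf7l. Of the higher genes with at least 50 normalised counts in WT, 7 of 14 held it. Over the whole list 16 of 42 promoters (38.1%) held the E-box. The list was drawn up from germline genes, so the distance from all promoters describes the class and not the higher genes. TCCCGC was found in 9 of the 21 higher genes (42.9%), in 12 of the 21 others (57.1%) and in 20% of all promoters. A match describes the letters in the window and not a bound site. The stretches around the first E-box of the 10 genes are shown 5′ to 3′ on the strand of the gene, with the E-box in capitals, since these are the genes whose levels are compared next.
Brdt (chr5:107331096-107331141, plus strand): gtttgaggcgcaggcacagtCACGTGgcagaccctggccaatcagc
Fkbp6 (chr5:135350120-135350165, minus strand): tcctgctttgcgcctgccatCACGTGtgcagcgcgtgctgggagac
Hormad1 (chr3:95559600-95559645, plus strand): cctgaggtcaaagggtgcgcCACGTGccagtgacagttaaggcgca
Mael (chr1:166238942-166238987, minus strand): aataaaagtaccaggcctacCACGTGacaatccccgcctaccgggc
Mov10l1 (chr15:88982744-88982773, plus strand): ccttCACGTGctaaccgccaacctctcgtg
Piwil1 (chr5:128736047-128736092, plus strand): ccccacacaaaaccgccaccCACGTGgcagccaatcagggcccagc
Slc25a31 (chr3:40708758-40708803, plus strand): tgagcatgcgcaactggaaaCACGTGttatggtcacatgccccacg
Stk31 (chr6:49395464-49395509, plus strand): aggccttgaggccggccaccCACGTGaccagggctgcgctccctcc
Taf7l (chrX:134476514-134476559, minus strand): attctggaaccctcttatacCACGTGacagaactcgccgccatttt
Zp3 (chr5:135979904-135979949, plus strand): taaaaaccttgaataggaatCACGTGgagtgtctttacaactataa
The E-box began between 246 bases (Mov10l1) and 49 bases (Taf7l) before the start. Fkbp6, Hormad1 and Piwil1 held 2 E-boxes in the window, and the others 1.

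In all, 343 genes were higher in KO (2.72%) and 287 were lower (2.27%), and the median log2 ratio of the 12626 genes was -0.02. The bulk of the transcriptome differed little, with 95% of genes within 2-fold and the log2 ratios of the 5th and 95th percentile at -0.73 and 0.64. At 1.5-fold the lower genes were more numerous (946 against 706 higher), whereas at 3-fold 170 genes were higher and 53 lower, and at 10-fold 16 and 4. The genes called higher had low levels in WT, with a median of 57.6 normalised counts in WT and 205 in KO, and 154 of the 343 were under 50 in WT, so that they entered the comparison only because they were high in KO. The genes called lower had a median of 263 in WT and 103 in KO. At mean levels of 50 to 200 normalised counts 9.67% of genes were higher and 6.93% lower, against 3 and 1 of the 2152 genes whose mean reached 5000. Just inside the minimum mean of 50 was 9330133O14Rik, with 58.6 normalised counts in WT and 41.4 in KO, and just outside it Stox1, with 30.2 and 69.7.

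**Figure D1:**
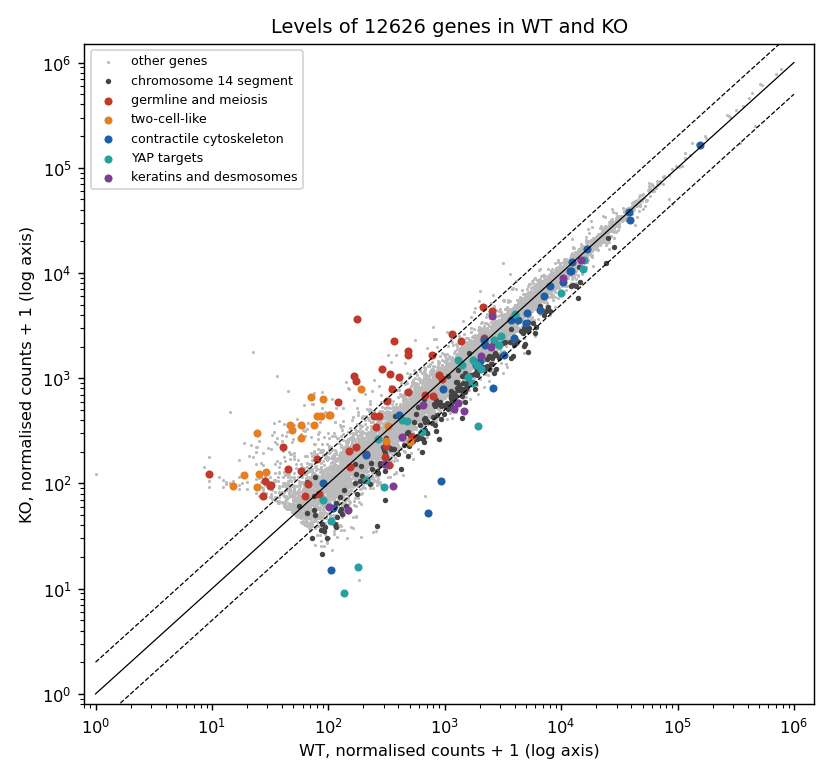
Normalised counts plus 1 of each gene in WT (horizontal, log axis) and KO (vertical, log axis), 1 point a gene for 12626 genes, with colours for 5 gene lists and the chromosome 14 segment. The solid line marks equal levels and the dashed lines 2-fold; 18 two-cell-like and 23 germline genes lie above the upper line, and 208 of the 215 genes of the chromosome 14 segment lie below the solid line.

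Zmym2 itself (ENSMUSG00000021945, chromosome 14, 56886653 to 56962701) had 7956 normalised counts in WT, 4370.1 in KO and 57139 in OE, a KO ratio of 0.549 (exact 95% interval 0.529 to 0.570). A frameshift need not remove a transcript, and the level was no check of the protein. The genes around it had similar ratios. Within 1 Mb of its start, the 18 other genes compared had a median ratio of 0.586, from 0.362 to 1.09. Among 235 windows of 10 Mb that held at least 15 genes, the 3 with the lowest medians adjoined each other between 50 and 80 Mb of chromosome 14, with median ratios of 0.598, 0.576 and 0.516. In this segment 208 of 215 genes were below WT, 59 were called lower and 0 higher. The median ratio was 0.567 with quartiles of 0.481 and 0.638, against 0.984 for the 207 genes on the rest of the chromosome, and in OE the median ratio of the segment was 1.09.

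The edge nearer the start of the chromosome was narrow at a resolution of 2 Mb. The 7 genes from 48 to 50 Mb had a median ratio of 1.06 and the 14 genes from 50 to 52 Mb one of 0.588. At the other end, the 11 genes from 78 to 80 Mb had a median of 0.512, and few genes were compared beyond it, 1 from 84 to 86 Mb at 0.784 and 2 from 86 to 88 Mb at 0.973. The 7 segment members that were not below WT included Rnf17 (1605 in WT and 1753 in KO) and Piwil2 (678 in WT and 690.0 in KO), both of which act in the piRNA pathway of the male germ line. Zmym5, a paralogue of Zmym2 within the segment, had 1424 normalised counts in WT, 904 in KO and 1504 in OE. The cause was not tested. Without the segment, 343 genes were higher and 228 lower of 12411, and its members are pointed out where they count among the lower genes of a list.

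**Figure D2:**
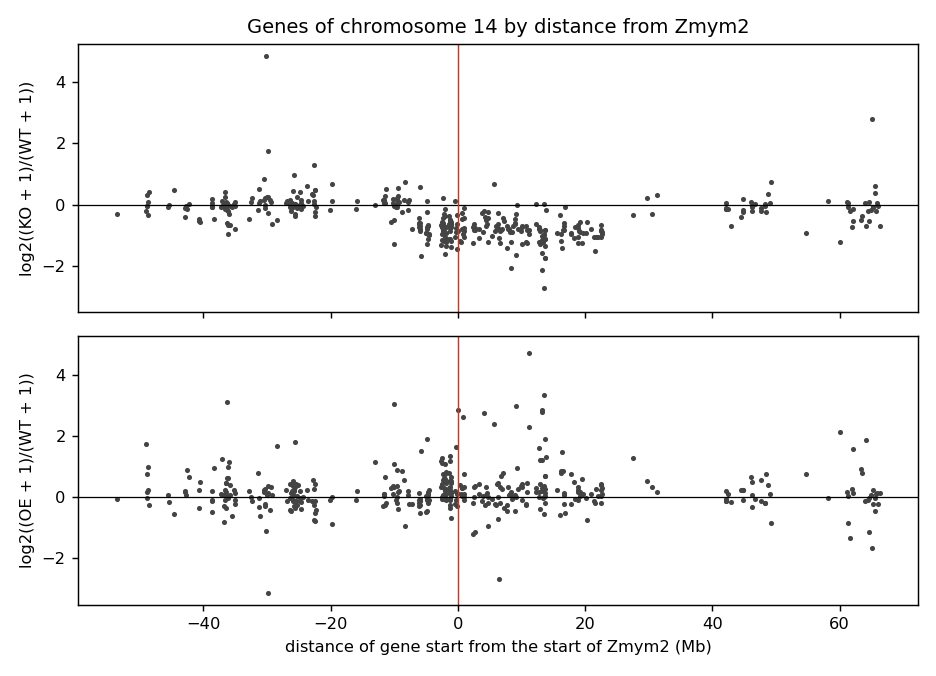
Log2 ratio to WT, with 1 added to each normalised count, of the genes on chromosome 14 in KO (upper panel) and OE (lower panel) against the distance of each gene's start from the start of Zmym2 in Mb (vertical line). In KO the 215 genes of the segment lie around a median ratio of 0.567 and genes on either side around the zero line, and in OE the same genes have a median ratio of 1.09.

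Germline genes were often higher in KO. Of 66 listed genes of germ cell development and meiosis, 64 were in the table and 46 passed the minimum mean, and of these 23 were higher (50%, beside 2.72% of all genes) and 1 lower, with a median log2 ratio of 1.02. In KO 38 of the 46 were above WT. Of the 23 higher genes, 7 were under 50 normalised counts in WT. Among the 18 genes under the minimum, 14 were above WT in KO, 3 were below and 1 was equal.

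Usp26, an X-linked deubiquitinase gene expressed in testis (ENSMUSG00000055780, chromosome X, 51753959 to 51801233 of GRCm38), had 175 normalised counts in WT, 3687 in KO and 34.1 in OE, a ratio of 21.1 (exact 95% interval 18.2 to 24.6). Tex13, another X-linked gene named for its expression in testis, had 8.50 normalised counts in WT, 122 in KO and 3.30 in OE, a ratio of 14.4 (7.33 to 32.2). Fkbp6, a co-chaperone of the piRNA pathway that is required for male meiosis, had 165 normalised counts in WT, 1040.5 in KO and 83.6 in OE, a ratio of 6.29 (5.36 to 7.43). For each of these genes KO was the highest of the 3 libraries and OE the lowest. Tuba3a, an alpha-tubulin gene of testis, followed the same order with 369 normalised counts in WT, 2267 in KO and 72.6 in OE (ratio 6.15, 5.52 to 6.87). Sohlh2, a transcription factor of early germ cell differentiation, had 481 normalised counts in WT, 1677 in KO and 99.0 in OE (ratio 3.49, 3.16 to 3.86).

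The genes whose E-boxes are printed above differed in level and size of change. Stk31, a kinase-like gene of spermatogonia, had 286 normalised counts in WT, 1230.4 in KO and 156 in OE, a ratio of 4.30 (3.79 to 4.89). Mael, a nuage protein needed for transposon silencing in the male germ line, had 480.0 normalised counts in WT, 1806 in KO and 557 in OE, a ratio of 3.76 (3.41 to 4.16). Hormad1, a protein of the unsynapsed meiotic chromosome axis, had 337 normalised counts in WT, 1103 in KO and 139 in OE, a ratio of 3.27 (2.90 to 3.70). All 3 were well above the minimum in WT already, so these transcripts were not absent from WT cells. Zp3, a glycoprotein of the egg coat, had 405 normalised counts in WT, 1034 in KO and 283 in OE, and Mov10l1, a helicase of piRNA biogenesis, had 349 normalised counts in WT, 787 in KO and 190.4 in OE. Brdt, a bromodomain protein of spermatids, had 27.4 normalised counts in WT, 104 in KO and 57.2 in OE. The remaining members had low levels in WT: Piwil1, a piRNA-binding Argonaute protein, had 26.5 normalised counts in WT, 74.8 in KO and 8.80 in OE, and Slc25a31, an ADP/ATP carrier of testis, had 57.6 normalised counts in WT, 129 in KO and 46.2 in OE. Taf7l, a testis paralogue of a TFIID subunit, had 44.4 normalised counts in WT, 136 in KO and 158 in OE and so was the only one of the 10 that was highest in OE.

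Not all germline genes were higher. Dazl, an RNA-binding protein of germ cells, had 317 normalised counts in WT, 607 in KO and 226 in OE, a ratio of 1.91 (1.67 to 2.19) that is just under 2-fold. Ddx4 (Vasa), the helicase that marks germ cells, was near WT with 945 normalised counts in WT and 985 in KO (ratio 1.04, 0.953 to 1.14). Sycp3, a structural protein of the synaptonemal complex, was below WT with 519 normalised counts in WT and 276 in KO (ratio 0.532, 0.458 to 0.616). These 3 were named after their values were seen. Rec8, the meiotic cohesin subunit and the one germline gene called lower, had 329 normalised counts in WT and 148 in KO (ratio 0.452, 0.370 to 0.549). It lies in the segment of chromosome 14 described above, and without the 2 members in that segment the median log2 ratio of the list was 1.12.

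Genes of the two-cell-like state were mostly higher in KO. Of 39 listed genes, 33 were in the table and 22 passed the minimum, of which 18 were higher (81.8%, beside 2.72% of all genes), 1 lower and 3 neither, with a median log2 ratio of 2.27. Of the 18, 8 were under 50 normalised counts in WT. Of the 11 genes under the minimum, 10 were above WT in KO and 1 was equal.

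Tdpoz4, a gene of the TD and POZ domain family transcribed in early embryos (ENSMUSG00000060256, chromosome 3, 93796398 to 93797510), had 23.6 normalised counts in WT, 300 in KO and 38.5 in OE, a ratio of 12.7 (8.44 to 19.9). Usp17le, a member of a deubiquitinase gene family, had 69.9 normalised counts in WT, 659.7 in KO and 105 in OE, a ratio of 9.43 (7.41 to 12.2), and Usp17la had 88.8 normalised counts in WT, 638 in KO and 149.7 in OE, a ratio of 7.19 (5.78 to 9.03). Tmem92, a transmembrane protein gene used as a marker of the state, had 46.3 normalised counts in WT, 355 in KO and 36.3 in OE, a ratio of 7.66 (5.67 to 10.5). The 5 Zscan4 genes compared (Zscan4b to Zscan4f), zinc finger genes that define the state in ESCs, were all higher, with ratios from 4.12 (Zscan4f) to 5.49 (Zscan4e). Zscan4f, the highest of them, had 189.9 normalised counts in WT, 783 in KO and 308 in OE. The 5 Usp17l genes compared had ratios from 4.49 to 9.43. Members of these families are near-identical copies, so their reads can be split or lost in counting and the value of a single member is uncertain. The listed genes that did not reach 2-fold were Cwc15, a splicing factor (3894 in WT and 3823 in KO), Zfp750, a zinc finger gene (315 in WT and 255 in KO), and Ddit4l, an inhibitor of mTOR signalling (322 in WT and 354 in KO). Fgf1, a fibroblast growth factor and the member called lower, had 504 normalised counts in WT, 249 in KO and 129.9 in OE (ratio 0.493, 0.423 to 0.575).

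**Figure D3:**
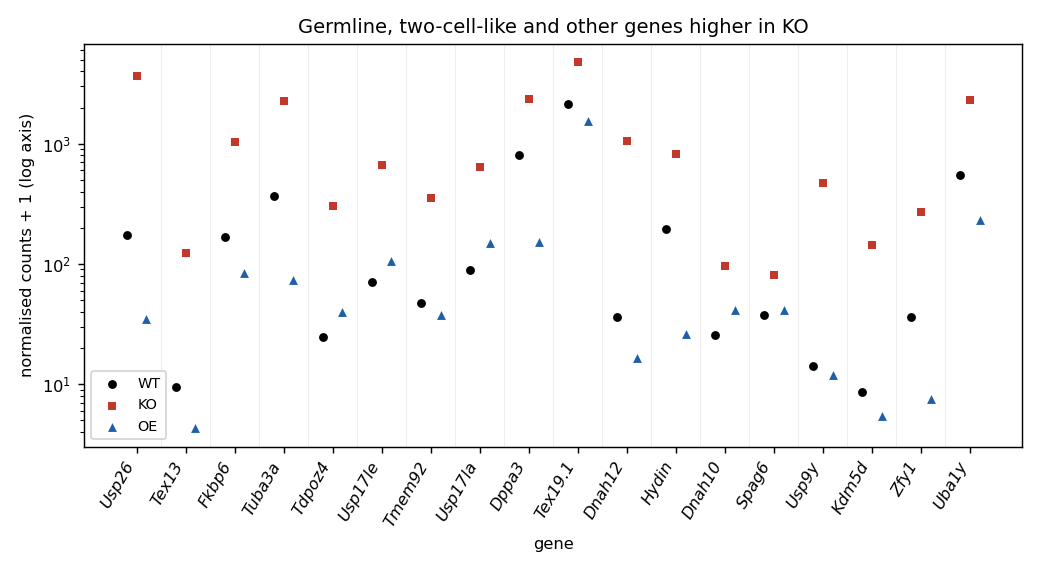
Normalised counts plus 1 (log axis) of 18 genes in the WT (circle), KO (square) and OE (triangle) library, 1 library each. KO is the highest of the 3 libraries for every gene shown, from Usp26 with 3687 normalised counts in KO to Spag6 with 79.8. The genes come from chosen lists and were picked as called higher, so KO above WT was fixed by the choice. Among all 343 genes called higher in KO, the same rule applied to OE over WT called 38 higher and 82 lower. Of all 12626 genes it called 957 higher and 437 lower. Called genes not shown, such as Taf7l and Il6ra, were highest in OE.

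A table of repeat families, which played no part in choosing the genes, showed the retrotransposon of the same state. MERVL, the internal part of this endogenous retrovirus, had 15235 normalised counts in WT, 62489 in KO and 22472 in OE, a ratio of 4.10 (4.03 to 4.17), and its long terminal repeat had 882 normalised counts in WT, 3054 in KO and 1301 in OE, a ratio of 3.46 (3.22 to 3.73). Of all repeat reads, MERVL took 1.80% in WT, 7.07% in KO and 2.48% in OE. Of 55 families that reached a mean of 200 normalised counts, 6 were higher (10.9%) and 0 lower. The other 4 were all endogenous retroviruses: RLTR6B (175 in WT and 577 in KO), ERVB4_2-I (125 in WT and 373 in KO), RLTR1B (456 in WT and 1085 in KO) and LTRIS3 (233 in WT and 535 in KO). The major satellite GSAT_MM, the repeat of pericentromeric heterochromatin, was just under 2-fold at 1.95 (1.74 to 2.19), and IAPEZI, an intracisternal A-particle, was at 1.44 (1.41 to 1.48). For LINE-1 elements the direction depended on the scaling. Of 24 L1 families 20 were below WT, with a median ratio of 0.890 and 0 called in either direction, whereas scaled to the reads of genes 9 were below WT and the median ratio was 1.05. The lowest was L1MdGf_I with 17078 normalised counts in WT, 8711 in KO and 18401 in OE (ratio 0.510, 0.498 to 0.523). L1MdA_I, an active young family, had 38887 normalised counts in WT, 23017 in KO and 27400.0 in OE (ratio 0.592, 0.583 to 0.601). The repeat values carry size factors of their own, and scaled to the reads of genes every KO ratio is 1.18 times higher, so that 8 of the 55 families reach 2-fold, GSAT_MM among them at 2.31, while L1MdGf_I is at 0.604 and L1MdA_I at 0.701.

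Outside these lists, the genes with the largest ratios were of several kinds. Serpina3m, a secreted serine protease inhibitor (ENSMUSG00000079012, chromosome 12, 104338486 to 104394257), had 21.7 normalised counts in WT, 1786 in KO and 9.90 in OE, a ratio of 82.2 (54.6 to 130). Serpina3k had 0 reads in WT and 123 normalised counts in KO, at least 43.5-fold higher when WT is set to the limit of 3 reads that a count of 0 allows. It starts at the same base as Serpina3m in the annotation and ends at 104346144 within it, so the reads of these paralogues cannot be fully told apart. Dnah12, a dynein heavy chain of motile cilia and flagella (ENSMUSG00000021879, chromosome 14, 26693274 to 26891703), had 35.0 normalised counts in WT, 1044 in KO and 15.4 in OE, a ratio of 29.8 (21.5 to 42.6). This gene is on chromosome 14 but outside the segment that is lower as a whole.

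Of the other leading genes, Rcsd1, a regulator of actin capping, had 44.4 normalised counts in WT, 762 in KO and 97.9 in OE (ratio 17.2, 12.8 to 23.5), and Cd200, an inhibitory ligand of immune cells, had 20.8 normalised counts in WT, 233 in KO and 48.4 in OE (ratio 11.2, 7.24 to 18.3). Smtnl1, a smoothelin-like gene of muscle, had 74.6 normalised counts in WT, 715 in KO and 35.2 in OE (ratio 9.58, 7.59 to 12.2). Tsx, an X-linked testis gene near Xist, had 60.5 normalised counts in WT, 552 in KO and 31.9 in OE (ratio 9.12, 7.03 to 12). Dnajc5g, a testis J-domain protein, had 8.50 normalised counts in WT and 105 in KO with 0 reads in OE, and Fam159b had 10.4 normalised counts in WT, 114 in KO and 14.3 in OE. Each of these was low in WT and OE alike, below 100 normalised counts in both. Of 17 axonemal genes 4 were higher (23.5%, beside 2.72% of all genes) and 2 lower (11.8%, beside 2.27%), with a median log2 ratio of 0.03. Of the 4, 3 were under 50 normalised counts in WT and passed the minimum only through KO. Besides Dnah12 the higher ones were Hydin, a central pair protein (194 normalised counts in WT, 816 in KO and 25.3 in OE), the dynein gene Dnah10 (24.6 in WT and 96.0 in KO) and Spag6 (36.9 in WT and 79.8 in KO). Lower were Foxj1, the transcription factor of motile ciliogenesis (111 in WT and 38.4 in KO), and Spag16 (117 in WT and 46.5 in KO).

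Genes of the Y chromosome were above WT as well. Of the listed Y-linked genes 7 were compared, of which 4 were higher (57.1%, beside 2.72% of all genes) and all 7 were above WT, and 3 of the 4 were under 50 normalised counts in WT. Erdr1, which is not on the list and is the only other gene compared that the annotation places on the Y chromosome, had 8839 normalised counts in WT, 12358 in KO and 10078 in OE. Usp9y, a deubiquitinase gene (ENSMUSG00000069044, chromosome Y, 1298961 to 1459782), had 13.2 normalised counts in WT, 475 in KO and 11 in OE, a ratio of 35.9 (21.2 to 66.2). Kdm5d, a histone H3K4 demethylase, had 7.56 normalised counts in WT, 142 in KO and 4.4 in OE, and Zfy1, a zinc finger gene with a role in male meiosis, had 35.0 normalised counts in WT, 269.7 in KO and 6.60 in OE. Uba1y, a ubiquitin-activating enzyme gene, had 551 normalised counts in WT, 2300.2 in KO and 233 in OE. The other 3 listed genes compared differed less, with Uty, a paralogue of a histone demethylase, at 1.15 (1.08 to 1.22), the translation factor Eif2s3y at 1.31 (1.24 to 1.38) and the helicase Ddx3y at 1.45 (1.37 to 1.53). All 3 libraries had reads of each of the 7 listed genes.

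The complexes known to work with ZMYM2 or to silence the same targets were near WT at the transcript level. Of 15 genes of the LSD1-CoREST complex and its partners 0 were called in either direction, with a median log2 ratio of -0.04. Kdm1a (LSD1), the demethylase, had 10343 normalised counts in WT and 10793 in KO, and Rcor2, the CoREST protein of ESCs, had 11711 normalised counts in WT and 11746 in KO. Of 15 PRC1.6 genes 0 were called (median -0.01), with Mga, its DNA-binding scaffold, at 19408 in WT and 20281 in KO. The same held for 27 genes of TRIM28 and SETDB1 silencing (0.08), 28 Polycomb genes (-0.02), 17 NuRD genes (-0.06), 18 genes of DNA methylation and demethylation (-0.02) and 7 genes of the ZMYM family (-0.18, and -0.14 without Zmym2 and Zmym5, which lie in the segment). Dnmt3b, a de novo DNA methyltransferase, was above WT by less than 2-fold, with 27253 normalised counts in WT, 40788 in KO and 22606 in OE (ratio 1.5, 1.47 to 1.52), and was named after its value was seen.

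Lower in KO were some genes of the contractile cytoskeleton, of the matrix and of simple epithelia. Of 30 contractile genes 0 were higher and 4 lower (13.3%, beside 2.27% of all genes), 24 were below WT, and the median log2 ratio was -0.27. Acta2, the smooth muscle actin (ENSMUSG00000035783, chromosome 19, 34241090 to 34255590), had 712 normalised counts in WT, 51.5 in KO and 4408 in OE, a ratio of 0.0723 (0.0534 to 0.0961) that is 13.8-fold lower. Tagln (SM22), an actin-binding protein of smooth muscle (ENSMUSG00000032085, chromosome 9, 45929619 to 45936058), had 929 normalised counts in WT, 105 in KO and 11495 in OE, a ratio of 0.113 (0.0915 to 0.139). Acta1, the skeletal muscle actin, had 104 normalised counts in WT, 14.1 in KO and 1601 in OE, a ratio of 0.136 (0.0720 to 0.238). Cald1, an actin- and myosin-binding regulator, had 2619 normalised counts in WT, 811 in KO and 22233 in OE, a ratio of 0.310 (0.286 to 0.335). In these 4 genes KO was the lowest and OE the highest of the 3 libraries. Actb, the cytoplasmic actin, was close to WT at 1.06 (1.06 to 1.07), and Srf, the transcription factor of many actin genes, at 0.959 (0.916 to 1.0).

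Promoters of the contractile genes often held the letters GGAATG, the site of TEAD factors, through which YAP acts, and the CArG box bound by SRF. The CArG box was searched as CC, 6 letters that are each A or T, and GG, so looser forms were not counted. Of 28 of the 30 genes with a promoter in RefSeq, 12 held GGAATG on either strand (42.9%, beside 14.6% of all promoters) and 6 held a CArG box (21.4%, beside 1.57%). The list was drawn up from genes of this class, so this describes the class and not the 4 lower genes. The 250 bases before the start of Acta2 and Acta1 are shown with these letters in capitals, as the actin genes furthest below WT. The start is the one in RefSeq, which for Acta2 lies inside the gene span given above from the other annotation (GENCODE), so most of its stretch lies within that span.
Acta2 (chr19:34255374-34255623, minus strand): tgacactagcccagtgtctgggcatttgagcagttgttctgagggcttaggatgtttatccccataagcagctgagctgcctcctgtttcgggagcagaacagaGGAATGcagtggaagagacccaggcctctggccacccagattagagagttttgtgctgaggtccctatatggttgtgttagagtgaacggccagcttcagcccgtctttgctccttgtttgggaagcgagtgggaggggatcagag
Acta1 (chr8:123894776-123895025, minus strand): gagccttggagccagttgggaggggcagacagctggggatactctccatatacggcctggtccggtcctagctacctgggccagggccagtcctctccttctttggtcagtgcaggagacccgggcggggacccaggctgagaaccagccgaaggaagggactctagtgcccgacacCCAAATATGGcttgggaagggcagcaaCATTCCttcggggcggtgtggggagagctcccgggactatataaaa
In Acta2 the TEAD letters began 146 bases before the start. Acta2 held no exact CArG match, but its stretches ccctatatgg and ccttgtttgg come close to the pattern and were left in lower case. In Acta1 the CArG box began 73 bases and the TEAD letters, on the opposite strand, 46 bases before the start.

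Targets of YAP, the coactivator that responds to cell spreading and tension, had the same direction where they were called. Of 25 compared, 0 were higher and 6 lower (24%, beside 2.27% of all genes), 22 were below WT, and the median log2 ratio was -0.48. Cav1, the scaffold of caveolae (ENSMUSG00000007655, chromosome 6, 17306335 to 17341452), had 134 normalised counts in WT, 8.08 in KO and 1772 in OE, a ratio of 0.0602 (0.0255 to 0.122). Tgfb2, a TGF-beta ligand, had 179 normalised counts in WT, 15.2 in KO and 2947 in OE, a ratio of 0.0849 (0.0466 to 0.144). Thbs1, a matrix glycoprotein that activates TGF-beta, had 1946 normalised counts in WT, 352 in KO and 25317 in OE, a ratio of 0.181 (0.161 to 0.202). The other 3 were the receptor kinase Axl (299.5 normalised counts in WT, 91.9 in KO and 2602 in OE), the vasoconstrictor peptide gene Edn1 (104 in WT and 43.4 in KO) and Fjx1 (639.7 in WT and 306 in KO). The 2 targets used most often as YAP reporters were below WT by less than 2-fold, with Ctgf at 0.873 (0.825 to 0.922) and Cyr61 at 0.710 (0.662 to 0.761).

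Of 25 collagen and matrix genes 8 were lower (32%, beside 2.27% of all genes) and 1 higher (4%, beside 2.72%), with a median log2 ratio of -0.40, and without the chromosome 14 segment 6 were lower and the median was -0.29. Col1a1, a chain of type I collagen, had 674 normalised counts in WT, 74.8 in KO and 3077 in OE (ratio 0.111, 0.0861 to 0.141), and Col1a2, its partner chain, had 108 normalised counts in WT, 14.1 in KO and 183 in OE (ratio 0.131, 0.0696 to 0.229). Also lower were Col12a1 (92.6 in WT and 33.3 in KO), the protease inhibitor Timp2 (204 in WT and 89.9 in KO), the collagen chaperone Serpinh1 (1129 in WT and 552 in KO) and, within the segment, the membrane protease Mmp14 (1264 in WT and 569 in KO) and the crosslinking enzyme Loxl2 (85.0 in WT and 35.4 in KO), with Thbs1, which is also on the list of YAP targets. The exception was Col5a3, a chain of type V collagen, with 100.2 normalised counts in WT, 267 in KO and 45.1 in OE. Basement membrane genes were divided, with Col4a1 (1992 in WT and 976 in KO) and Col4a2 (1105 in WT and 469 in KO) lower and Lama3, a laminin chain of epithelia, higher (341 normalised counts in WT, 1435 in KO and 199 in OE) among 14 compared. Both collagens lie on chromosome 8, whose genes had a median ratio of 0.848.

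Keratins and desmosome genes had the lowest median of the adhesion lists at -0.70, with 5 of 14 lower (35.7%, beside 2.27% of all genes) and 0 higher. Krt19, a keratin of simple epithelia (ENSMUSG00000020911, chromosome 11, 100140810 to 100148665), had 356 normalised counts in WT, 92.9 in KO and 4752 in OE (ratio 0.261, 0.205 to 0.328). Krt8 had 1471 normalised counts in WT, 491 in KO and 18258 in OE and its partner Krt18 1292 normalised counts in WT, 579.8 in KO and 12754 in OE. The desmosomal cadherin Dsc2 (146 in WT and 54.6 in KO) and Perp, a desmosome protein and p53 target (1198 in WT and 514 in KO), were lower too. Of 17 mesenchymal genes 3 were lower (17.6%, beside 2.27% of all genes) and 0 higher. In KO 5 of the 17 were above WT and 12 below, with a median log2 ratio of -0.45. The 3 lower ones were the annexins Anxa1 (383 in WT and 125 in KO) and Anxa3 (369 in WT and 123 in KO) and the hyaluronan receptor Cd44 (86.0 in WT and 24.2 in KO). Integrins (14 genes) and tight junctions (21 genes) had 0 calls, with median log2 ratios of -0.30 and -0.18.

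**Figure D4:**
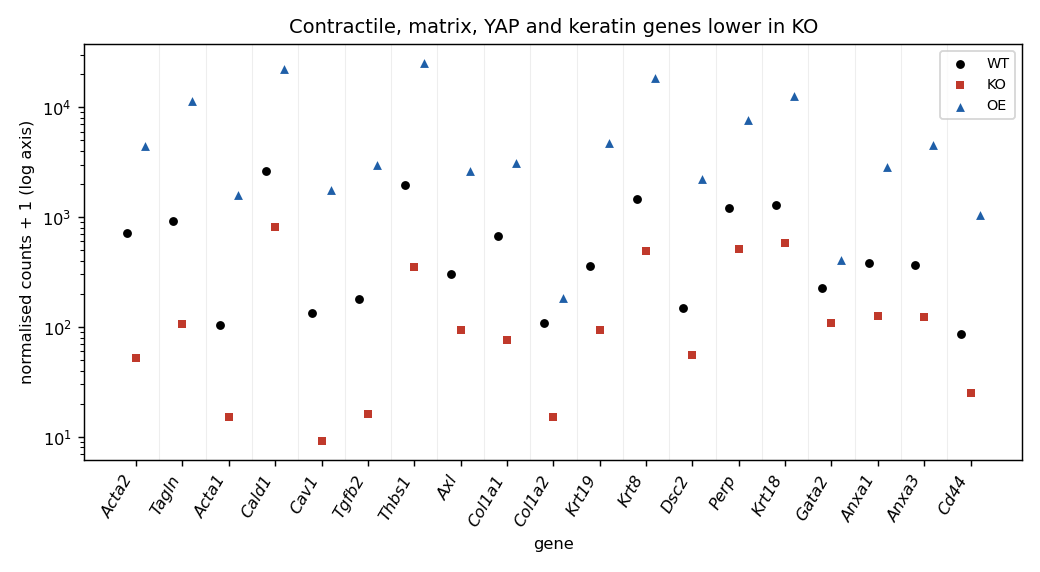
Normalised counts plus 1 (log axis) of 19 genes in the WT (circle), KO (square) and OE (triangle) library, 1 library each. KO is the lowest and OE the highest library for every gene shown. Acta2, for example, had 712 normalised counts in WT, 51.5 in KO and 4408 in OE. The genes shown come from chosen lists. Among all 287 genes called lower in KO, the same rule applied to OE over WT called 126 higher and 18 lower. Of all 12626 genes it called 957 higher and 437 lower. The order shown is thus not that of every lower gene.

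Markers of other cell types were set beside these groups, since ESC cultures in serum hold some differentiated cells. The 8 ESC markers were all compared with 0 calls, at ratios from 0.758 (Esrrb) to 1.01 (Utf1), and their summed level was 188833 normalised counts in WT, 171236 in KO and 141996 in OE. The summed level of 15 fibroblast markers was 1408 in WT, 775 in KO and 5537 in OE. Of the 6 compared, 3 were above and 3 below WT, with a median log2 ratio of -0.08. The 2 called lower (33.3%, beside 2.27% of all genes) were Col1a1 (674 in WT and 74.8 in KO) and Col1a2 (108 in WT and 14.1 in KO). Both are matrix genes named above, and they held most of the WT sum. In this list Fap was at 0 in all 3 libraries, Postn was at 0 in KO and Lum at 0 in WT. Col3a1, a fibrillar collagen among the markers, had 77.5 normalised counts in WT, 0 in KO and 992 in OE, at least 25.6-fold lower in KO at the limit of 3 reads, and its mean over WT and KO was under the minimum. Neuron and glia markers summed to 7495, 5268 and 15984 in WT, KO and OE, and to 5950, 4466 and 6021 without Nefl and Nefm, neurofilament genes in the chromosome 14 segment. The median log2 ratio of the 7 compared was -0.84 with these genes and -0.34 without them. Summed in the same order of libraries, muscle markers were at 1837, 2675 and 1989, endothelial markers at 4312, 4557 and 2129.5, and blood markers at 689.8, 419 and 798. In bulk RNA, fewer cells of a type and less RNA per cell cannot be told apart, and the part of such cells in the lower genes was not tested.

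Among the lower genes furthest from WT that were not on the lists described so far, Prss23, a secreted serine protease (ENSMUSG00000039405, chromosome 7, 89507783 to 89527187), had 182 normalised counts in WT, 11.1 in KO and 1675 in OE, a ratio of 0.0609 (0.0299 to 0.111). Pmp22, a membrane protein of peripheral myelin and other cells, had 254 normalised counts in WT, 34.3 in KO and 2838 in OE (ratio 0.135, 0.0917 to 0.194). Csf1, the growth factor of macrophages, had 243 normalised counts in WT, 33.3 in KO and 3171 in OE (ratio 0.137, 0.0925 to 0.198). Cryab, a small heat shock protein, had 189.9 normalised counts in WT, 30.3 in KO and 1369 in OE (ratio 0.160, 0.105 to 0.235), and Wisp1, a matricellular WNT target, had 106 normalised counts in WT, 22.2 in KO and 1011 in OE (ratio 0.210, 0.127 to 0.334). Bmp1, a procollagen protease within the chromosome 14 segment, had 261 normalised counts in WT, 38.4 in KO and 2652 in OE, a ratio of 0.147 (0.102 to 0.207) that lies well below the segment's lower quartile. These 6 were highest in OE. H60b, a ligand of the NKG2D receptor, was not, with 143 normalised counts in WT, 29.3 in KO and 53.9 in OE (ratio 0.205, 0.133 to 0.307).

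Pluripotency genes were spread around WT. Of 33 naive pluripotency genes 2 were higher (6.06%, beside 2.72% of all genes) and 1 lower (3.03%, beside 2.27%), with a median log2 ratio of -0.07. Dppa3 (Stella), a maternal factor that protects DNA methylation in the zygote, had 805 normalised counts in WT, 2369.9 in KO and 152 in OE (ratio 2.94, 2.72 to 3.19), and Tex19.1, a germline gene that restrains retrotransposons, had 2143 normalised counts in WT, 4756 in KO and 1546 in OE (ratio 2.22, 2.11 to 2.33). Tdh, a threonine dehydrogenase abundant in mouse ESCs, was lower with 13979.5 normalised counts in WT and 5844 in KO and lies in the chromosome 14 segment. Pou5f1 (Oct4), which specifies pluripotency, had 36973 normalised counts in WT and 34069.7 in KO (ratio 0.921, 0.908 to 0.935) and Nanog 17584 normalised counts in WT and 16744 in KO (ratio 0.952, 0.932 to 0.972). Formative and primed epiblast genes, 23 in number, had 0 higher and 1, the transcription factor Tcf15 (1776 in WT and 816 in KO), lower.

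Among lineage genes that passed the minimum, most calls were lower, where 2.27% of all genes were. The study plotted 16 lineage genes from these libraries, so they are no independent evidence of a direction. Of these 10 passed, with 0 higher, 2 lower (Sox1 and Gata2) and a median log2 ratio of -0.79, and its 4 inner cell mass genes had 0 calls. Sox1, a neural transcription factor, had 508 normalised counts in WT, 193 in KO and 207 in OE (ratio 0.380, 0.320 to 0.449), and its chromosome 8 as a whole, with 685 genes, had a median ratio of 0.848. Of 13 neuroectoderm genes 2 were lower (15.4%), Sox1 and the microtubule gene Map2 (1051 in WT and 412 in KO). Of 17 trophectoderm genes 4 were lower (23.5%), of which Krt8, Krt18 and Krt19 are also counted among the keratins and Gata2, a factor of trophoblast and blood cells, had 227 normalised counts in WT, 108 in KO and 403 in OE. Ascl2, an imprinted factor of trophoblast, was higher with 47.2 normalised counts in WT, 188 in KO and 60.5 in OE. Of 12 later mesoderm genes Kdr, the main VEGF receptor (171 in WT and 46.5 in KO), and Gata2 were lower (16.7%) and Gata1, an X-linked factor of red blood cells (41.6 in WT and 101 in KO), higher. Of 8 primitive streak genes compared, Fgf17 in the segment (1399 in WT and 419 in KO) and Sp5, a WNT target (367 in WT and 162 in KO), were lower (25%), and 16 listed streak genes were under the minimum. The median log2 ratio of the 8 was -0.14, and 0.23 without Fgf17. Of 16 primitive endoderm genes 2 were lower (12.5%), the collagens Col4a1 and Col4a2, and of 11 definitive endoderm genes 3 (27.3%), the keratins named above. Col4a1 and Col4a2 are neighbours on chromosome 8, in a window (10 to 20 Mb) with a median ratio of 0.822 and 38 of 41 genes below WT.

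Of signalling genes, most calls were lower, and the share lower differed between lists, beside 2.27% of all genes. Of 41 axon guidance genes 4 were lower (9.76%) and 0 higher, 33 were below WT, and the median log2 ratio was -0.31. Ntn1 (netrin), a guidance cue, had 4774 normalised counts in WT, 1720.4 in KO and 5099 in OE (ratio 0.360, 0.341 to 0.381), and Nrp2, a semaphorin and VEGF co-receptor, had 3432 normalised counts in WT, 1288 in KO and 5372 in OE (ratio 0.375, 0.352 to 0.400). The others were the ligands Sema3e (1906 in WT and 858 in KO) and Efna5 (75.6 in WT and 25.3 in KO). WNT genes had 4 of 35 lower (11.4%), and 3 without the receptor Fzd3 (305 in WT and 130 in KO), which is in the chromosome 14 segment. Also lower were Sp5, the ligand Wnt4 (118 normalised counts in WT, 30.3 in KO and 1498 in OE) and Wls, which carries WNT ligands to the surface (266 normalised counts in WT, 103 in KO and 3070.5 in OE). FGF and ERK genes had 3 of 31 lower (9.68%), Fgf17, Fgf1 and Fgf18 (261 in WT and 96.0 in KO), and 2 without Fgf17 of the segment. Of 20 immediate early genes, 17 were below WT and 2 were lower (10%), the AP-1 subunits Jun (382 normalised counts in WT, 127 in KO and 1906 in OE) and Fosl2 (276 normalised counts in WT, 98 in KO and 2226 in OE). Imprinted genes had 2 of 34 higher (5.88%, beside 2.72% of all genes), Usp29 (60.5 normalised counts in WT, 344 in KO and 26.4 in OE) and Ascl2, and 4 lower (11.8%), the growth factor Igf2 (738 in WT and 292 in KO), Nnat (1153 in WT and 417 in KO), Peg12 (101 in WT and 29.3 in KO) and Sgce (315 in WT and 148 in KO). LIF and STAT3 genes had 1 of 20 higher (5%), the receptor subunit Il6ra (45.4 in WT and 95 in KO), and 0 lower, with a median log2 ratio of -0.22. Of 26 p53 targets 1 (3.85%), the costimulatory ligand gene Cd80 (80.3 in WT and 210.1 in KO), was higher and 1, Perp, lower, both near the shares of all genes. Single genes called in other lists were the Notch ligand Dll1 (420.5 in WT and 891 in KO), which was higher, and the cyclin Ccnd2 (3171 in WT and 1131 in KO), the activin subunit Inhbb (1643 in WT and 628 in KO) and the Hedgehog inhibitor Hhip (282 in WT and 96.0 in KO), which were lower.

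Genes of general metabolism were close to WT. Of 66 lists 22 had 0 genes called, and together these 22 held 450 genes. Among them were 79 cytosolic ribosomal proteins, 74 of which were above WT with a median log2 ratio of 0.11, 66 genes of oxidative phosphorylation (0.06), 23 of glycolysis (0.11), 29 of cholesterol synthesis (-0.03) and 23 of the ATF4 response to amino acid stress (0.22). The 14 mitochondrially encoded genes had a median of 0.17, 18 interferon genes 0.22 and 12 MHC class I genes -0.16. Scaled to Gapdh instead, 11 of 62 list medians change sign, all of at most 0.08 in size, among them those of oxidative phosphorylation (-0.02), of TRIM28 and SETDB1 silencing (-0.00035) and of axonemal genes (-0.05), and scaled to housekeeping genes 5 change sign. Another choice of scaling shifts every log2 ratio by the same amount, by -0.08 for Gapdh and by less for the others.

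**Figure D5:**
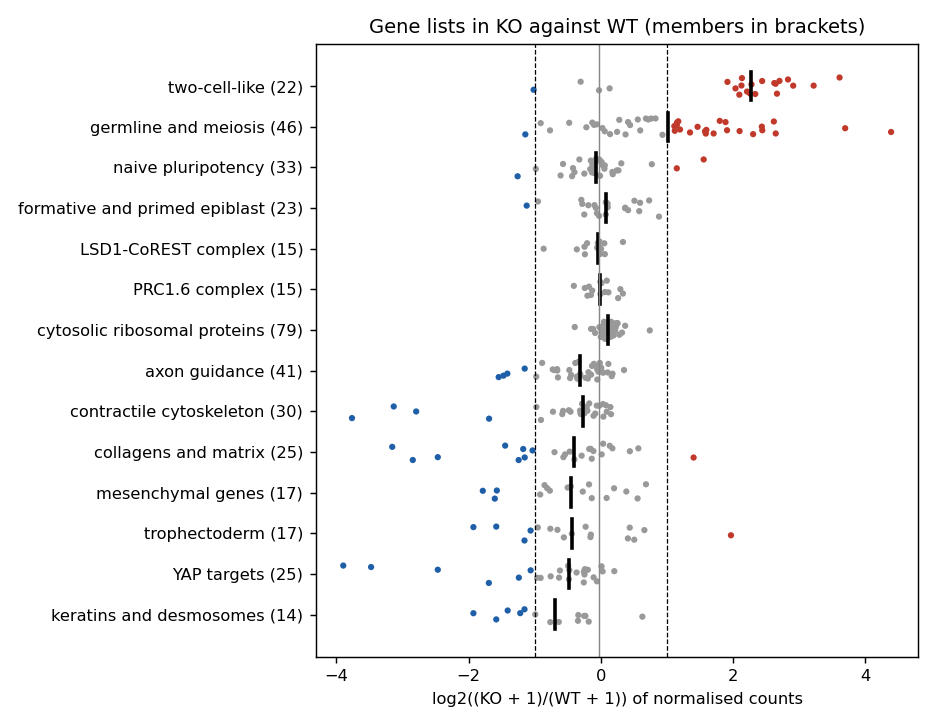
Log2 ratio of KO to WT, with 1 added to each normalised count, of the members of 14 gene lists (number of members in brackets), 1 point a gene, with red for genes called higher, blue for genes called lower and a bar at the median of each list. The dashed lines mark 2-fold and the grey line the median of all 12626 genes at -0.02; the two-cell-like median lies at 2.27 and the keratin and desmosome median at -0.70.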

How the data were processed

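RNA-seq values of 3 libraries of E14tg2a ESCs (WT, KO and OE, 1 each) were used. According to its Methods and processing notes, ribosomal RNA was removed before strand-specific library preparation, and the study used Trim Galore for trimming, TopHat2 for alignment to GRCm38/mm10, featureCounts for counting and DESeq2 for normalisation. Which annotation featureCounts used is not stated there. All deposited signal values are read counts, divided by the authors by size factors of DESeq2, for genes and, in a second table, for 312 repeat families. Length normalisation is also described in the Methods, yet 100% of values were whole multiples of 1 read (tolerance 1e-06). The reads so recovered over genes were 50120551 in WT, 46995766 in KO and 41840774 in OE, and 874876, 1018550 and 749544 over repeats. Genes with reads numbered 21009, 21203 and 21062. A count of 0 allows 3 reads, which are 2.83, 3.03 and 3.30 normalised counts. A further 4 columns of levels were left out. A deposited table of the authors' own ratios of single genes was not used either.

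Genes were counted as higher or lower at 2-fold with a pseudocount of 1. No count model was fitted and no count test run, as there is 1 library a side, and without molecular identifiers reads need not be separate molecules. GENCODE M21 gave the positions of 99.2% of the genes compared. There were 176 symbols shared by several identifiers. The counting was tested on simulated data. The genes, the 66 gene lists and the comparisons were chosen with earlier results of these data known. The genes named were Zmym2, the genes the study plotted, the 15 with the largest and the 15 with the smallest ratio among genes that reached 100 normalised counts in either library (predicted names left out), and up to 4 called members of each list at that level, or the 2 with the highest level where none was called. List members outside this rule are named where 5 or fewer were counted, where their promoter held an E-box, or after their values were seen. Windows along the genome spanned 10 Mb, and neighbouring genes were joined across gaps of up to 150 kb. Motif searches of gene sets with under 80% of promoters matched, all genes compared included, were void and are not given, so shares are set beside those of all promoters in the table. Alternatives were other scalings (total reads, housekeeping genes, Gapdh, TMM factors of edgeR 4.0.16 in R 4.3.3), pseudocounts, minimums and folds, and counts without the chromosome 14 segment or predicted names. Scripts ran in Python 3.11.15 (scipy 1.17.1, pandas 2.3.3, numpy 2.4.6, matplotlib 3.10.9).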

Additional observations from a re-analysis of the deposited data

How the results depend on the processing

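The counts of 343 higher and 287 lower genes depended on the fold and the minimum mean. They were 706 and 946 at 1.5-fold and 170 and 53 at 3-fold, 763 and 518 at a minimum mean of 10, 124 and 130 at 200, and 3005 and 1346 with no minimum, where genes with a few reads are counted. With the minimum taken over all 3 libraries, genes high only in OE enter, and the counts were 314 and 399, so that 44.0% of calls were higher in place of 54.4%. Of the gene lists with at least 5 members, 8 had a median log2 ratio of at least 0.5 in size, and 4 at a minimum mean of 200. Scaling to total reads, housekeeping genes, Gapdh or TMM factors gave 310 to 348 higher and 278 to 367 lower genes, and pseudocounts of 0.5 and 10 gave 346 and 290 and 315 and 252. Of 742 alternative list medians 7 lay outside a binomial interval around the list's own median, all with scaling to housekeeping genes or Gapdh, and 0 of the medians of at least 0.5 in size changed sign. The repeat families called higher were 6, and 8 both with scaling to gene reads and with a minimum mean of 50. The 30 named leading genes stayed at least 2-fold apart under the 4 scalings. This outcome was fixed in advance, since these genes were chosen for the most extreme ratios. No scaling shifted log2 ratios by more than 0.08 in size. No paired analysis was possible because each condition has 1 library, and for the same reason no library could be left out. Depth limits single genes with few reads, since a count of 0 allows 3 reads.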

Other observations

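Some genes called higher in KO lay near each other, with genes that were not called possibly between them. Within gaps of 150 kb, 69 of the 343 higher genes formed 29 runs, of up to 4 genes each, and outside the chromosome 14 segment 16 lower genes formed 8 runs of 2. On chromosome 11 from 94777217 to 94846092 the run held the two-cell-like marker Tmem92 and 3 neighbours, AA623943, Gm11543 and Gm11544. On chromosome 5 from 135960211 to 136111860 it held the egg coat gene Zp3 with Srcrb4d, Upk3b, a uroplakin gene, and Rasa4, a RAS regulator. Tandem copies made up other runs, such as Zscan4d to Zscan4f and Usp17le, Usp17lb and Usp17la on chromosome 7, and Pramel7 (40.6 normalised counts in WT and 364 in KO) with Pramel6 (35.0 and 234) on chromosome 2, which belong to a family active in germ cells and early embryos. On the X chromosome Pim2, a kinase gene, Gata1 and Was, a regulator of actin in blood cells, were higher together, and on the Y chromosome Zfy1, Uba1y and Kdm5d. These runs were noticed in the data and were not compared with chance.

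By chromosome, the X had 25 of 457 genes higher (5.47%, beside 2.72% of all genes) and 8 lower with a median log2 ratio of -0.02. Chromosome 8 had a median log2 ratio of -0.24 over 685 genes in KO and of -0.19 in OE, both against the same WT library. Among families by name, both Rhox genes compared were higher, with ratios of 3.16 and 5.52. Of 55 genes with Usp names 8 were higher, beside 2.72% of all genes, and 0 lower. These included the 5 Usp17l genes, Usp26, Usp29 and Usp9y, which are already reported above in other lists. Predicted genes with Gm names made up 16% of the higher genes, 3.45% of all genes compared and 1.39% of the lower ones. The causes were not tested.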
